A study of Drosophila melanogaster with 2 samples.

Results

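Binding of a GFP-tagged CG43347 protein was examined at 10 genes of neurons and synapses: elav, fne, futsch, brp, Syt1, nSyb, Syx1A, Dscam1, Nrg and Nrx-1. They were taken by name from the 13945 protein-coding genes on the 6 major chromosome arms, and each name matched 1 gene of the Ensembl annotation. The data are peak lists of chromatin immunoprecipitation followed by sequencing (ChIP-seq) from whole Drosophila melanogaster embryos of 10 to 24 h. The transgenic line carried CG43347, under the older name CG9817, with a C-terminal GFP tag, and the antibody was directed against GFP. The 2 samples formed 1 group, biological replicates 1 and 3, so there was no second condition, and nothing in the labels separates neurons from the other cells of the embryo. The list of either replicate held 30000 peaks, the pooled list made from both held 30000, and 5038 peaks passed the threshold on the irreproducible discovery rate (IDR), a measure of how well replicates agree. The depth behind the lists is unknown, and peaks were ranked by the authors' signal value within a list, rank 1 being the strongest.

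A neuron releases transmitter when vesicles fuse with the presynaptic membrane. Fusion is driven by SNARE proteins on the vesicle (neuronal Synaptobrevin, nSyb) and on the target membrane (Syntaxin 1A, Syx1A), is triggered by the calcium sensor Synaptotagmin 1 (Syt1), and takes place at active zones built on the scaffold Bruchpilot (brp). Axons and synapses are positioned by surface proteins such as Dscam1, Neuroglian (Nrg) and Neurexin (Nrx-1), Futsch binds microtubules in axons, and the RNA-binding proteins Elav and Found in neurons (fne) shape neuronal transcripts.

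An IDR-thresholded peak with its summit within 500 bp of a transcription start site (TSS), called a promoter peak here, was present at 2 of the 10 genes, elav and Nrx-1, against 23.7% of all coding genes. An intronic summit, meaning one outside every annotated exon of the gene and over 500 bp from its TSSs, was present in 3, elav, fne and Nrg, against 7.75% of all coding genes. Summits in the 5 kb on either side of the gene occurred at 2, nSyb and Syx1A, against 39.9%. The other 4 genes, futsch, brp, Syt1 and Dscam1, had no IDR-thresholded summit in the gene or within 5 kb, so 6 of 10 had some, against 53.5% of coding genes. Of coding genes of at least 20 kb, 27.8% had a promoter peak, 54.3% a summit inside the gene, 39.0% a flank summit and 71.5% any of these, and of the 6 members of that length 0 had a promoter peak, 2 a summit inside the gene and 2 any. A summit inside the gene was found in 4 of the 10, elav, fne, Nrg and Nrx-1, against 12.8% of all coding genes. In all there were 11 such summits: 2 at promoters, 5 in introns and 4 in flanks.

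**Figure D1:**
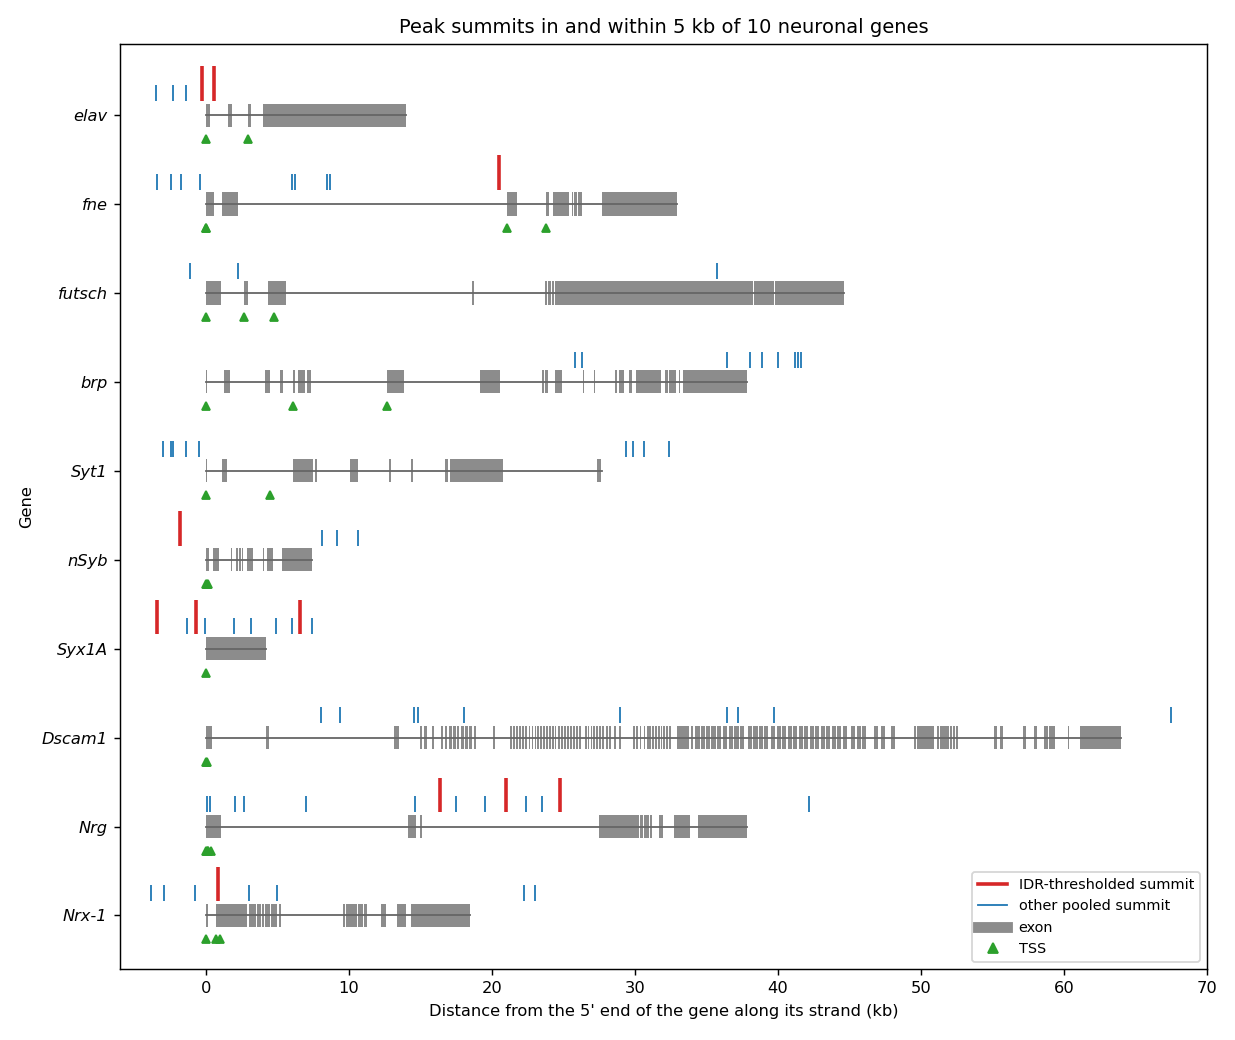
Map of the 10 genes drawn along their strand, with distance from the 5' end in kb on the x axis, exons as grey boxes, start sites as green triangles, IDR-thresholded summits as tall red bars and other summits of the pooled list as short blue bars. The red bars sit at the 5' end of elav, in introns of fne and Nrg, at an internal start of Nrx-1 and outside nSyb and Syx1A, and 4 genes have none.

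The 201 bp around 7 of the 11 summits are printed here, so that the words searched for later can be read in place. They are the summits in or just upstream of elav, fne, Nrg and Syx1A, given 5' to 3' on the plus strand of the NCBI RefSeq release 6 assembly, with capitals marking the words.
elav promoter, X:523378-523578: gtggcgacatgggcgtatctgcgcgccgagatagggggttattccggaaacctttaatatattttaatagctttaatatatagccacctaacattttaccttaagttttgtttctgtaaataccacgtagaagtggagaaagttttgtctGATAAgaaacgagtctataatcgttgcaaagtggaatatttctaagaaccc
elav intron, X:522539-522739: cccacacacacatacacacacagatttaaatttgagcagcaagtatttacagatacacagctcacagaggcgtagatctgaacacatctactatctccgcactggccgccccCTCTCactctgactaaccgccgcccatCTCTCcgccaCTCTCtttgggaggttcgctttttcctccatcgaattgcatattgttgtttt
fne intron, X:12937850-12938050: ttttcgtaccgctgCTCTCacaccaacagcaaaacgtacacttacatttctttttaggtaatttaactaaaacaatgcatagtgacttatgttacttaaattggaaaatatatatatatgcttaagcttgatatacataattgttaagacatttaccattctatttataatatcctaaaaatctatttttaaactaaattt
Syx1A upstream, 3R:24106358-24106558: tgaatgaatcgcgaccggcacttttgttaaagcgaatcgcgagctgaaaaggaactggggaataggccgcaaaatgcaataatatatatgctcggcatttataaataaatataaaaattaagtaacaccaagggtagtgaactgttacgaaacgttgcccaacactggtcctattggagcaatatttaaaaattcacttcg
Nrg intron a, X:8533613-8533813: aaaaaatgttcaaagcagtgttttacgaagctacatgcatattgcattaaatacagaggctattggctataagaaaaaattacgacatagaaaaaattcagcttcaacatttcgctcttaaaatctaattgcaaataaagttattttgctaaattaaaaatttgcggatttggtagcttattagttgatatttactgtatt
Nrg intron b, X:8538279-8538479: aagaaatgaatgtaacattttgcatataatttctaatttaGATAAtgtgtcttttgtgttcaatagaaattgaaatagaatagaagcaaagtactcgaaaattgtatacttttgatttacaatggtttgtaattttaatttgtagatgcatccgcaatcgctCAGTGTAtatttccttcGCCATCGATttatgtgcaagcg
Nrg intron c, X:8542048-8542248: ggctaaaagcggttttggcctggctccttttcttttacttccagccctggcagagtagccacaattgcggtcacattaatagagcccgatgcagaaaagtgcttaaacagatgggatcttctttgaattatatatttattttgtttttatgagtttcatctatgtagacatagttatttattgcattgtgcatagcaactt

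The strongest peak in or at the start of any of the 10 genes lay at elav (FBgn0260400, X:509235-523226, minus strand), the gene of a nuclear RNA-binding protein widely used as a marker of neurons. Its promoter peak at X:523313-523658 (dm6) had a signal of 1929.6 and rank 75 of 5038 in the IDR-thresholded list, which placed it at position 51 among the 2509 peaks at coding promoters. The summit was 252 bp upstream of the TSS used by 3 of the 4 annotated elav transcripts, a start shared with the noncoding gene lncRNA:enrr on the same strand, so the peak cannot be given to either gene alone. In the replicates the matching peak ranked 65 in replicate 1 (signal 863) and 87 in replicate 3 (signal 1067). A second elav peak at X:522523-522754 (signal 642, rank 655) lay in the 1289 bp intron that follows the exon at that start, 839 bp from the first summit and 587 bp downstream of the TSS. It ranked 849 in replicate 1 and 578 in replicate 3. The pair thus flanked the exon at the 5' end of elav, and the other annotated start, used by 1 transcript, had its nearest IDR-thresholded summit 2354 bp upstream.

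The paralog fne (FBgn0086675, X:12917477-12950417, plus strand) showed a much weaker peak in a different place. Its IDR-thresholded peak at X:12937775-12938124 had a signal of 143 and rank 4550, near the end of the list. The summit lay in an intron of 18.8 kb (18807 bp), 567 bp upstream of an internal TSS used by 5 of the 11 fne transcripts, just outside the 500 bp limit. This peak ranked 6687 in replicate 1 and 3857 in replicate 3, and it would have missed a list of the 5038 strongest peaks of replicate 1. At the distal start of fne the pooled list held a peak 404 bp upstream at rank 9979, with summits 355 bp upstream in replicate 1 (rank 11205) and 332 bp upstream in replicate 3 (rank 14929). The same intron held 4 further pooled summits, at ranks 8875 to 19442.

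The cytoskeletal gene futsch (FBgn0259108, X:1409069-1453686, plus strand), which encodes a large microtubule-associated protein related to mammalian MAP1B, had no IDR-thresholded summit within 5 kb. The nearest was 10237 bp upstream of its most distal TSS, and its nearest start belonged to the gene Rilpl. In the full lists, the strongest peak inside futsch or within 500 bp of a start ranked 12104 in the pooled list (signal 60.7), 403 bp upstream of the middle of the 3 starts. Within the same limits, the strongest in replicate 1 ranked 24921, 90 bp downstream of that start, and the strongest in replicate 3 ranked 6887, 362 bp upstream of it. None of the 2 pooled peaks in the gene or at its starts overlapped a peak of both replicates. The upstream flank held a stronger pooled peak (signal 81.8, rank 8097), 1148 bp from the most distal start, which was found in replicate 1 at rank 18962 and in replicate 3 at rank 6650. Replicate 1 had a further flank peak, 2181 bp upstream at rank 13869.

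The active zone and vesicle genes carried no IDR-thresholded summit inside the gene or at a start. At brp (FBgn0259246, 2R:9503765-9541565, plus strand), the scaffold of the active zone, the nearest such summit to any of the 3 starts was 30727 bp away, downstream and beyond the end of the gene, where a strong peak (rank 18, signal 3442) was nearest to the start of CG1888. The pooled list held 3 peaks in brp, none of them at a start and none overlapping peaks of both replicates, and the strongest ranked 20416. A cluster of 6 pooled summits followed brp within 5 kb of its 3' end, at ranks 5282 to 11338. At Syt1 (FBgn0004242, 2L:2772327-2799979, minus strand), the calcium sensor of release, the nearest IDR-thresholded summit to a start was 29695 bp away. The lone pooled peak in Syt1 or within 500 bp of its starts, 486 bp upstream of the start used by 7 of 8 transcripts, ranked 27447 of 30000, was present in replicate 1 at rank 21299, and had no counterpart in replicate 3. The 5 kb flanks of Syt1 held 8 more pooled peaks, 4 on each side. The strongest (signal 79.7, rank 8364) lay 2282 bp upstream and was found in replicate 3 at rank 6872 but not in replicate 1. Of the 8, 2 overlapped peaks of both replicates, both past the 3' end, where starts of other genes were nearer.

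The SNARE genes were short and had strong peaks only beside them. The vesicle SNARE gene nSyb (FBgn0013342, 3L:1630348-1637752, minus strand) had no peak in the gene or at its starts in the pooled list or in replicate 3, and 2 in replicate 1, the stronger at rank 15116. In its upstream flank a peak at 3L:1639441-1639699 (signal 646, rank 644) had its summit 1815 bp from the nSyb start but 144 bp from that of Bgb, which encodes a partner of Runx transcription factors, with a start of Mettl2 also within 500 bp. That peak ranked 668 in replicate 1 and 692 in replicate 3. Past the 3' end of nSyb the pooled list held 3 weaker peaks, at ranks 7151 to 18363. The target-membrane SNARE gene Syx1A (FBgn0013343, 3R:24101600-24105763, minus strand) has 1 TSS in the annotation and no base outside exons, so it could hold no intronic summit as defined here. Its 3 flank summits differed widely. The strongest, at 3R:24108983-24109383 (signal 2377, rank 46), lay 3433 bp upstream of Syx1A and 140 bp from the start of CG18428, with a start of eIF4EHP, the gene of a cap-binding translational repressor, also within 500 bp. It ranked 52 in replicate 1 and 47 in replicate 3. The peak at 3R:24106283-24106632 (signal 139, rank 4669) had its summit 695 bp upstream of the TSS, and ranked 4611 in replicate 1 and 4829 in replicate 3. The peak at 3R:24098994-24099343 (signal 273, rank 2299) lay 2431 bp past the 3' end, and ranked 6776 in replicate 1 and 1652 in replicate 3. At the TSS itself, the pooled list had a peak 86 bp upstream at rank 9502, which ranked 5849 in replicate 1 and 18105 in replicate 3.

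The surface receptor genes ranged from none to 3 IDR-thresholded summits. Dscam1 (FBgn0033159, 2R:7317924-7381899, minus strand), whose transcripts are spliced into a very large number of receptor isoforms, is the longest of the 10 genes, at 63976 bp with 75 annotated transcripts. It had no IDR-thresholded summit, and the nearest to a start was 14088 bp upstream, at the gene with the start nearest to it, Glo1. The pooled list held 9 peaks in Dscam1, 6 in introns and 3 in exons, the strongest at rank 11249, and 3 of the 9 overlapped peaks of both replicates. None of the 4 lists had a summit within 500 bp of a Dscam1 start.

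Nrg (FBgn0264975, X:8517373-8555170, plus strand), the gene of an L1-type adhesion protein of axons and of epithelial septate junctions, had the most IDR-thresholded summits inside the gene. All 3 lay in the same intron, 12385 bp long between X:8532465 and X:8544849, at spacings of 4666 and 3769 bp. Their signals were 274 (X:8533671-8533759, rank 2290), 219.8 (X:8538204-8538553, rank 2930) and 283 (X:8542116-8542265, rank 2199). In replicate 1 they ranked 3034, 3475 and 3578, and in replicate 3 they ranked 2037, 2667 and 1763. The nearest of them to an Nrg start was 15972 bp downstream, and the gene with the nearest start to each was PIP82, which lies within Nrg on the opposite strand, between 4015 and 12450 bp away. The 5 clustered Nrg starts had a pooled peak with its summit on a start (0 bp), at rank 7615, and the matching summits were 86 bp upstream of a start in replicate 1 (rank 5576) and 3 bp downstream of a start in replicate 3 (rank 5971). Of 13 pooled peaks in Nrg or at its starts, 8 overlapped peaks of both replicates. The share over all 30000 pooled peaks was not computed. Such counts, here and at futsch, brp, Syt1 and Dscam1, are therefore not read as high or low.

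Nrx-1 (FBgn0038975, 3R:22468512-22486969, plus strand), the presynaptic adhesion receptor that pairs with neuroligins, had the other promoter peak. The peak at 3R:22469157-22469422 had a signal of 616 and rank 702, at position 462 of the 2509 peaks at coding promoters. Its summit lay between 2 internal starts, 144 bp downstream of that of 1 transcript and 153 bp upstream of that of 6 transcripts, inside an annotated exon. The most distal start, used by 2 transcripts, was 813 bp away. The peak ranked 760 in replicate 1 and 686 in replicate 3, and no other gene had a start within 500 bp. It was the only IDR-thresholded summit of Nrx-1.

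**Figure D2:**
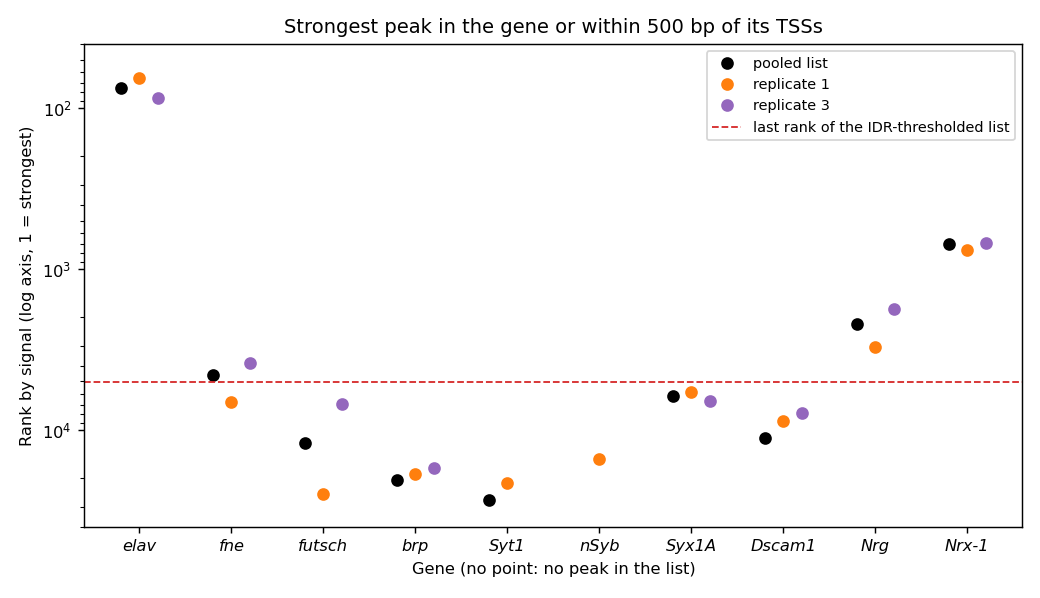
Rank by signal, on a log axis with the strongest at the top, of the strongest peak in each gene or within 500 bp of its starts, in the pooled list (black), replicate 1 (orange) and replicate 3 (purple). The pooled peaks of elav (rank 75), Nrx-1 (702), Nrg (2199) and fne (4550) lie above the dashed line at 5038, the last rank of the IDR-thresholded list, and the other 6 genes lie below it or have no point.

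Distance to the starts set which peaks counted as promoter peaks. Inside the limit of 500 bp were the summits of Nrx-1 (144 bp) and elav (252 bp), and outside it came those of fne (567 bp), the elav intron (587 bp) and Syx1A (695 bp). With a limit of 250 bp 1 of 10 genes had a promoter peak, against 19.1% of coding genes. With 1000 bp 4 of 10 had one, against 27.1%. At 500 bp, counting a summit only for the gene with the nearest start kept 2 of 10, against 17% of coding genes. The 2519 strongest IDR-thresholded peaks also kept 2 of 10, against 14.8%. Whether the members stood below or above the coding share thus depended on the setting. Over all 28 annotated starts of the 10 genes, 3 had an IDR-thresholded summit within 500 bp (10.7%), against 21.7% of 19607 coding starts. In the full pooled list 13 of 28 had one (46.4%), against 46.6%, counts that include the starts with an IDR-thresholded summit. The nearest IDR-thresholded summit to a start was a median of 6026 bp away over the 10 genes, with quartiles of 599 and 15501 bp. Over all coding genes the median was 5620 bp, with quartiles of 638 and 15993 bp. A gene's distance was the smallest over its starts, and the 10 genes had a median of 3 starts, against 1 over all coding genes. A gene with more starts has more places at which a summit can lie near.

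In the full lists more of the genes had a promoter peak, as did more genes overall. The pooled list gave 7 of 10, against 48.2% of coding genes, replicate 1 gave 8, against 53.0%, and replicate 3 gave 6, against 45.4%. The genes with one in the pooled list and each replicate were elav, fne, futsch, Syx1A, Nrg and Nrx-1. Syt1 had one in the pooled list and replicate 1, and nSyb in replicate 1 only, at rank 26669 with a signal of 15.9. The lowest signal in that list was 14.8, so the nSyb peak lay near its end. The brp and Dscam1 starts had none in any list. The pooled list and that of either replicate ended at 30000 peaks, with a lowest signal of 36.9 in the pooled list and 26.8 in replicate 3. A peak missing from a list may thus lie below its end.

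Each of the 11 IDR-thresholded summits had an overlapping peak in both replicates, with summits within 100 bp for all 11, and 8 met an overlap of 50% of both lengths. Over the whole list 98.4% of the 5038 peaks had an overlapping peak in both. Each of the 11 peaks had the same rank in the IDR-thresholded list as in the pooled list, down to rank 4669. To that rank the list thus held the strongest pooled peaks, and the pooled list was made from both replicates. Such matches are therefore no independent sign of agreement. Of the 5 intronic summits, 5 ranked higher in replicate 3, with a median rank of 3475 in replicate 1 and 2037 in replicate 3. That direction was common to the list, since 68.8% of the 1685 intronic summits found in both replicates ranked higher in replicate 3, against 37.1% of the 2578 near a start. The downstream Syx1A peak had the largest ratio of ranks among the 11, with ranks of 6776 and 1652 in replicates 1 and 3. The flank count of 4 was 5 among the 5038 strongest peaks of replicate 1 and 7 among those of replicate 3. No share over coding genes is given for these replicate counts. These are single values from 2 libraries, so no spread was estimated.

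**Figure D3:**
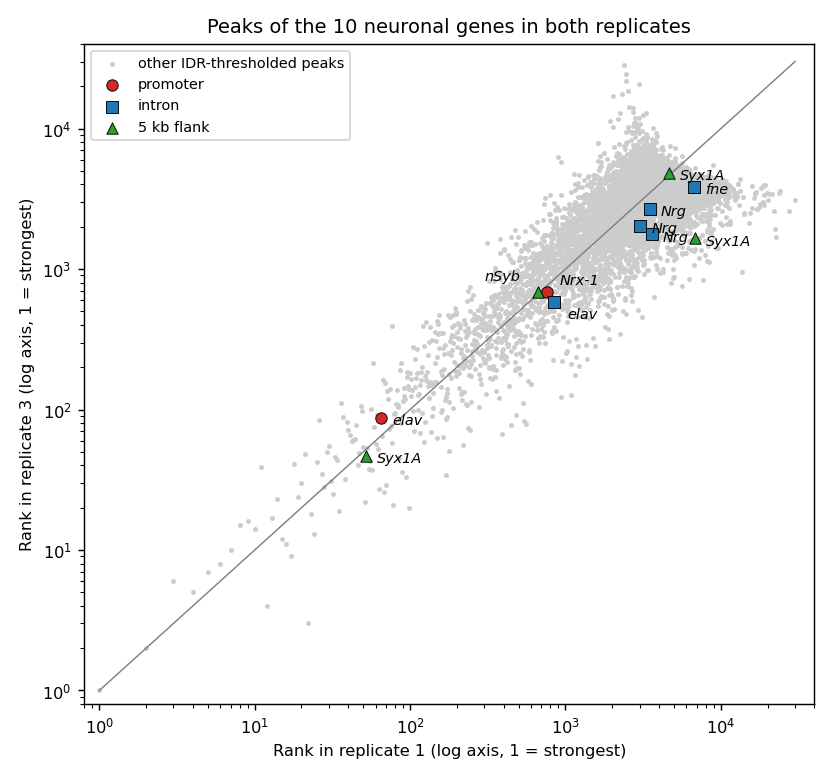
Rank of each IDR-thresholded peak in replicate 1 (x axis) and replicate 3 (y axis), both on log axes with 1 as the strongest. Large symbols are the peaks of the 10 genes, at promoters (red circles), in introns (blue squares) and in 5 kb flanks (green triangles), grey points are the other peaks, and the line marks equal rank. The 5 intronic squares lie below the line.

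Content of G and C in the 201 bp windows had a median of 34.3% over the 11 summits, against 34.3% over all 5038, and ran from 22.9% at the peak between CG18428 and eIF4EHP beside Syx1A to 48.3% in the elav intron. The middle 90% of all summits ran from 24.9 to 47.8%. Each window was searched on both strands for 11 words bound by known factors, some of which overlap each other. GAGAG, the core of the GAGA factor element, was found in 2 of the 11 windows, against 19.6% of all summits and 33.2% of 19607 coding promoter windows (250 bp before to 50 bp after a start). It stands in the elav intron at 3 places, 12 to 49 bp from the summit, and at the edge of the fne window. GATAA was in 2 of 11 (42% of summits, 53.7% of promoters), at the elav promoter and Nrg intron b, and GCCAT was in 2 of 11 (25.2% and 41.1%), at Nrg intron b and Nrx-1. ATCGAT (11.6% and 21.0%), CGATA (31.2% and 45.8%) and TAATTA (19% and 18.9%) were each in 1 window. No window held TATCGATA (4.29% and 7.99%), the element bound by Dref, GGTCACACT (1.57% and 5.23%), bound by M1BP, the E-boxes CAGCTG (8.12% and 18%) and CACGTG (2.08% and 4.03%), or CAGGTAG (0.834% and 1.7%).

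A further 6 words of 7 letters were those with the largest ratio between all IDR-thresholded summits and flanks 600 bp away, picked from these data and so shown only as a description. CAGTGTA was in 6.91% of summits, 1.48% of flanks and 2.85% of coding promoters, and 1 of the 11 windows held it, Nrg intron b, 62 bp from the summit. The other words were ACTATCG (5.8% of summits and 7% of promoters), CTATCGA (6.97% and 10.9%), ATCGATA (9.05% and 16%), AACTATC (5.12% and 5.49%) and AGTGTAG (3.79% and 2.33%), and none of the 11 windows held any of them. Nrg intron b was therefore the window with the most words, with 4 different ones, of which GCCAT shares letters with the neighbouring copy of ATCGAT. Taking any start of a gene, promoter windows held GAGAG at 8 of the 10 genes, CGATA and GCCAT at 7 each and GATAA at 6. ATCGAT stood at 4 (futsch, Syt1, Nrg and Nrx-1) and GGTCACACT at 1 (Syx1A). The promoter percents given for words are per start, and these genes have a median of 3 starts, so the 2 cannot be compared. No share per gene was computed over coding genes. Of the 5 genes named for the last 2 words, Nrx-1 alone had an IDR-thresholded promoter peak, and a link of word and peak was not tested.

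Length differed between the 10 genes and coding genes in general. Their median length was 30297 bp, against 2166 bp, and 6 of the 10 were at least 20 kb long, against 7.26% of coding genes. Among coding genes of at least 20 kb, 50% had an intronic summit, and among the 6 long members 2 had one, fne and Nrg. Per length of intron the 10 genes had 0.295 summits per 10 kb (5 in 169 kb), against 0.314 over all coding genes and 0.263 over those of at least 20 kb. Within the set the density was 3.05 in the short introns of elav, which rests on 1 summit, 1.08 in Nrg and 0.428 in fne, and 0 in the others that have introns. In the full pooled list the 10 genes had 1.54 intronic summits per 10 kb, against 2.22 over all coding genes.

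Other genes of the same kinds were listed by pathway, and 65 of the 68 names matched the annotation. A promoter peak was present at 13 of the 65 genes, against 23.7% of coding genes, and an intronic summit at 16 (24.6%), against 7.75% of all coding genes. Of the 41 genes of at least 20 kb in the list, 9 had a promoter peak (22.0%), against 27.8% of coding genes of that length. An intronic summit was present in 14 of the 41 (34.1%), against 50% of coding genes of that length. By group, 9 of 24 adhesion and guidance genes had a promoter peak, and 2 of 14 of vesicle release and active zone. So had 1 of 5 of RNA-binding and nuclear proteins and 1 of 4 of a cytoskeletal group. That last group also held jeb, which encodes a secreted ligand and not a cytoskeletal protein. The counts were 0 of 4 for endocytosis, 0 of 6 for transmitter genes and 0 of 8 for channels. Most groups are small, and a difference between groups was not tested. The 8 strongest were PlexA, a semaphorin receptor (signal 1262, rank 190), dlg1, a scaffold of synapses and septate junctions (473, rank 1090), Sema1a, a membrane-bound semaphorin (469, rank 1105, with 2 tRNA gene starts also within reach), the ankyrin gene Ank2 (342, rank 1737), the receptor phosphatase gene Lar (305, rank 1996), the teneurins Ten-m (221, rank 2904) and Ten-a (206, rank 3164), and the neuroligin Nlg2 (203, rank 3202). All 8 ranked below elav, and of them only PlexA ranked above Nrx-1. The genes with the most intronic summits were Ten-a and Sema1a with 5 each, fra, a netrin receptor, with 4, dlg1 with 3, and the adhesion genes side and Fas3 with 2 each (jeb also had 2, weaker), the strongest of side at rank 434. Over the 65 genes there were 0.131 intronic summits per 10 kb.

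**Figure D4:**
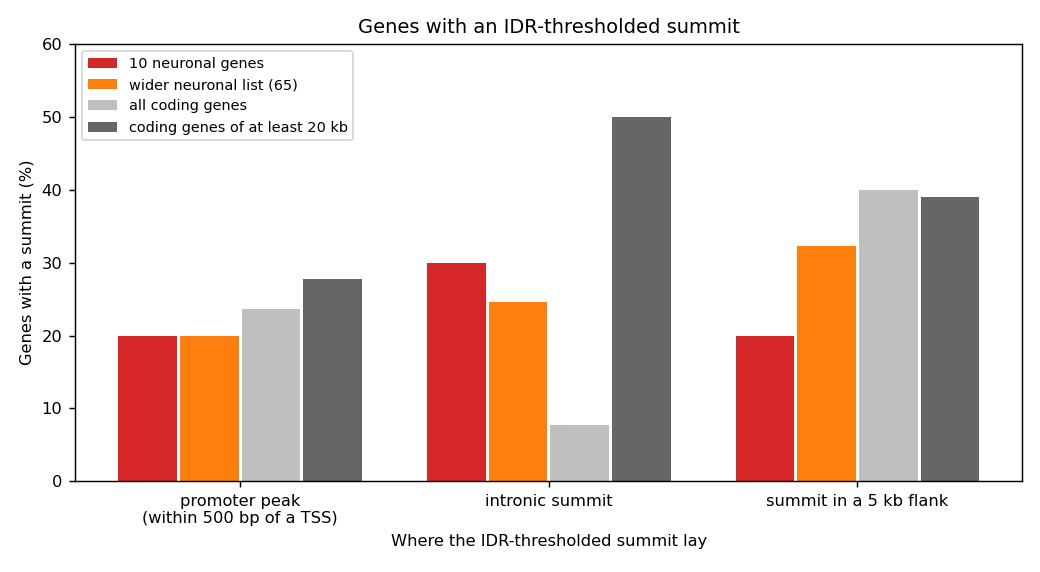
Percent of genes with an IDR-thresholded summit at a promoter, in an intron or in a 5 kb flank, for the 10 members (red), the wider neuronal list of 65 genes (orange), all coding genes (light grey) and coding genes of at least 20 kb (dark grey). For promoters the members stand at 20% and all coding genes at 23.7%, and for introns the members stand at 30%, between all coding genes at 7.75% and long ones at 50%.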

How the data were processed

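ChIP-seq peak lists of 2 biological replicates (1 and 3) in 1 group were analysed. Chromatin was sheared by sonication, with sizes between 200 and 800 bp, per the labels. The lists are on dm6. Per the deposited notes, the replicate and pooled lists were made from the alignments and from 1 further file, which the control-normalized signal also used, and the IDR-thresholded list was made from those 3 lists. The peak caller is not given in the sources used here. The signal deposited by the authors for each peak has no stated scale and served only for ranking within a list. The −log10 q value deposited beside it and control libraries were not used.

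The members and lists were chosen with earlier results of these data known. TSSs, exons and names came from Ensembl release 115 (BDGP 6.54), and sequence from the NCBI RefSeq release 6 assembly. A summit counted for every gene in reach, in the order promoter (500 bp), exon, intron, flank (5 kb). Peaks matched between lists if they overlapped by at least 1 bp. Python 3.11.15, numpy 2.4.6, pandas 2.3.3 and matplotlib 3.10.9 were used. No test was made: members are set beside the percent of coding genes called by the same rule. The assignment to classes was checked on simulated summits placed in genes, and all came back in their class. Named genes were the 10 members and, of the wider list, the 8 strongest promoter peaks and the 6 genes with the most intronic summits. Of the wider list, syd-1, synj and VMAT were not matched as spelled and not analysed here. The 6 words of 7 letters were chosen after the data were seen.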

Additional observations from a re-analysis of the deposited data

How the results depend on the processing

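Of 52 recomputed counts of genes, summits or matches, 35 stayed within 1.5 times the reported one. The matches among them are no independent sign of agreement, since the pooled peaks were made from both replicates. No paired analysis was possible because the samples form 1 group. The whole pooled list gave 7 members with a promoter peak, 8 with a summit inside the gene (4 as reported), 26 summits in introns, 39 in flanks, 6726 coding genes with a promoter peak, 2694 with an intronic summit (1081 as reported) and 39 genes of the wider list with a promoter peak. The 2519 strongest IDR-thresholded peaks gave 2 members with a promoter peak, against 14.8% of coding genes (2061). They gave 3 intronic summits in members, 603 coding genes with an intronic summit and 5 genes of the wider list with a promoter peak. With a summit counted only for the gene with the nearest start, 2 members had a promoter peak, against 17% of coding genes (2370). In the wider list 12 genes then had one. A TSS distance of 250 bp left 1 member with a promoter peak, since the elav summit lies 252 bp away, and 1000 bp gave 4, with 3 intronic summits. Flanks of 2 kb held 2 summits and flanks of 10 kb held 15. To leave out replicate 1 or replicate 3, the 5038 strongest peaks of the other replicate alone were used, with no IDR threshold. In either case 2 members had a promoter peak. A summit inside the gene was found in 3 to 4 members, introns held 4 to 5 summits and flanks 5 to 7. Between those settings coding genes with a promoter peak ran from 3046 to 3733, those with an intronic summit from 984 to 1116, and the wider list from 9 to 18. For summits inside the gene and in flanks, no share over coding genes is given at these settings. Those counts can rise with a larger list or a wider flank alone, so no reading of the members is drawn from them. Per 10 kb of intron the pooled list gave 1.54 summits over the members and 2.22 over all coding genes. Depth is unknown, so a missing peak does not show that binding was absent.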
